A study of Drosophila melanogaster with 16 samples.

Results

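The 9 genes described here were chosen for large differences with small spread between 160R and 5R flies carrying the transgene on chromosome 2, out of 17558 genes counted in each library. They are CG18673, CG33926, CG8665, CG2493, CG8245, nompB, CG2233, CG4572 and CG30054. They were selected on the chromosome 2 fold change and its spread, so their chromosome 2 values are given as a description without a test. The tests are of the chromosome 3 changes, whose levels were not part of that selection. These tests are not fully independent of it, since the main fit takes the spread of a gene from the libraries of both chromosomes. The spread on chromosome 2 was not small for all 9 genes. The coefficient of variation in Chrom2-5R was 2.07% for CG8245 and 4.49% for CG4572 but 55.8% for CG33926, 33.5% for CG8665 and 24.2% for CG18673.

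RNA was sequenced from whole heads of male Drosophila melanogaster collected 5 to 8 days after eclosion and raised at 25 °C. They carried a repeat expansion like that found in C9ORF72 in the motor neuron disease ALS and in frontotemporal dementia, with either 5 (5R, the short control) or 160 (160R, the long form) copies of the repeat unit. The 4 groups were Chrom2-5R and Chrom2-160R, and Chrom3-5R and Chrom3-160R, named for the chromosome that carries the transgene, with 4 libraries each. The labels state neither the driver of the transgene nor the genetic background of a line, nor whether the 4 libraries of a group came from separate crosses, so p-values cover only how much these libraries vary, which may be technical.

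The 9 genes belong to several unrelated processes. CG18673 (CAH5 in current annotation) is a carbonic anhydrase, an enzyme that interconverts carbon dioxide and bicarbonate. CG8665 encodes formyltetrahydrofolate dehydrogenase, which draws one-carbon units out of the folate pool and ends in an aldehyde dehydrogenase domain. CG2493 and CG4572 are serine carboxypeptidases, which trim amino acids from the ends of peptides. nompB is the fly IFT88, a subunit of the intraflagellar transport trains that build the cilia of sensory neurons. CG30054 encodes an alpha subunit of heterotrimeric G proteins of the Gq class, which in other family members couples receptors to phospholipase C. CG33926 (Srg3 in current annotation), CG8245 and CG2233 carry no role in the tables at hand.

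Chrom2-5R libraries held 11452337 to 23498476 counts and Chrom2-160R libraries 19047916 to 30496479, while Chrom3-5R libraries held 42854987 to 53615117 and Chrom3-160R libraries 48118158 to 49792428, so insertion line and depth go together and cannot be told apart. All 9 genes passed the filter on low counts and had at least 18 counts in every library. Levels are CPM, counts scaled to a common library size, after TMM scaling, a correction for library composition, and a change is a log2 fold change with its standard error (SE). Markers of neurons, photoreceptors and glia were abundant in every library, as in heads. Chrom2-160R replicate 1 stood apart in muscle markers, whose 7 genes summed to 8700.0 CPM against 4924 to 5073 in the other libraries of the group, and Chrom3-160R replicate 4 was the highest of its group at 5491 CPM. Chrom2-160R replicate 1 also had 110 CPM summed over 3 male reproductive tract markers. The other Chrom2-160R libraries had 4.82 to 8.75 CPM, and no library of the other groups was above 4.65 CPM. Where this RNA came from was not tested.

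**Figure D1:**
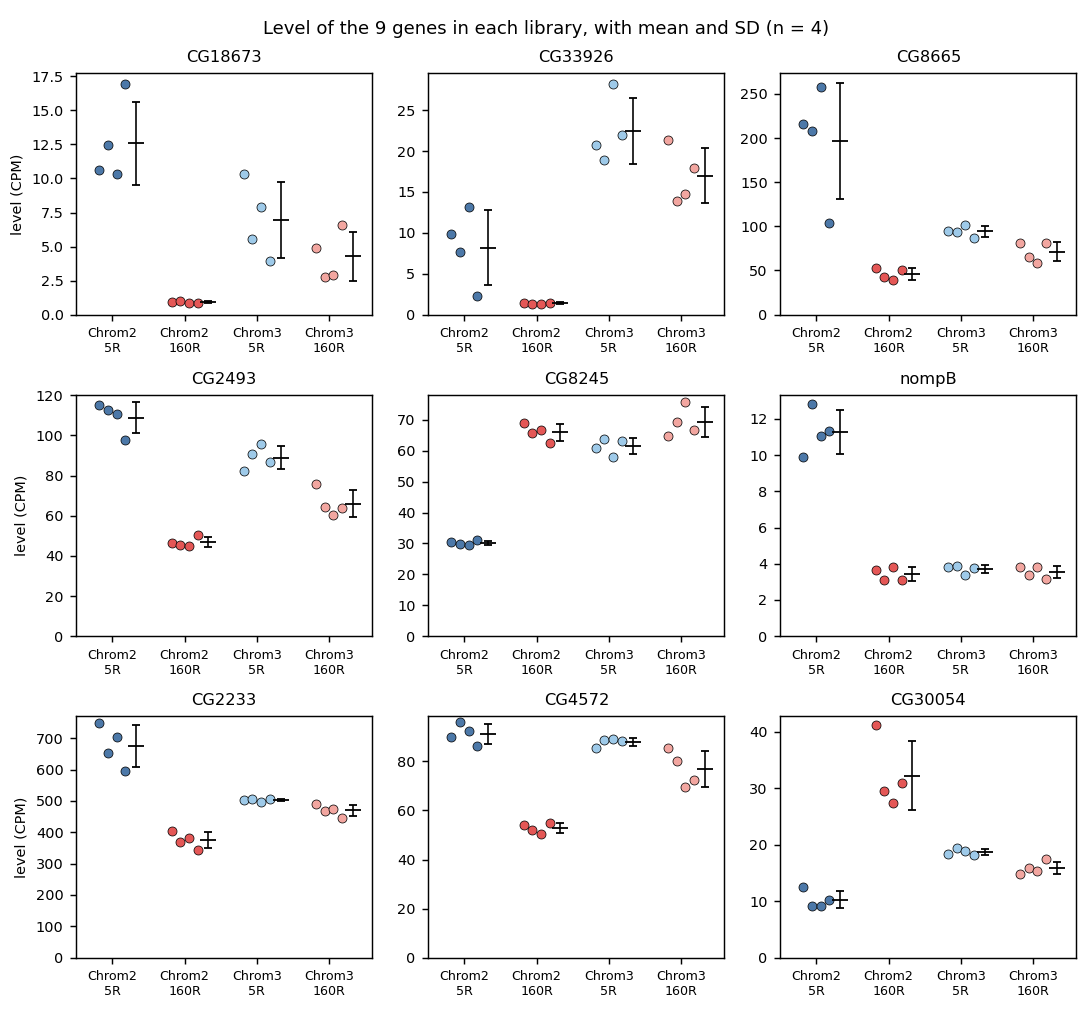
Level in CPM (y axis, linear, from 0) of each of the 9 genes in every library of the 4 groups (x axis). Points are libraries in replicate order and bars are the mean with SD over 4 libraries. Chrom2-5R stands apart for nompB and CG8245, Chrom2-160R is lowest for CG18673, and for CG33926 both chromosome 3 groups lie above both chromosome 2 groups.

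Among the enzymes, CG18673 showed the widest gap on chromosome 2. It lies on 3R, from 31262598 to 31263878 on the plus strand. Its level was 10.6, 12.4, 10.3 and 16.9 CPM in the Chrom2-5R libraries and 0.912, 1.02, 0.843 and 0.849 CPM in the Chrom2-160R libraries. All 4 Chrom2-160R libraries were close to 1 CPM and rested on 18 to 26 counts each. The group means were 12.6 ± 3.04 and 0.906 ± 0.0820 CPM (SD, n = 4), and the fitted log2 change was -3.82 ± 0.41 (SE), or 14.1-fold. On chromosome 3 its level was 10.3, 5.58, 7.93 and 3.93 CPM in Chrom3-5R and 4.87, 2.77, 2.89 and 6.55 CPM in Chrom3-160R. These ranges overlapped, and the log2 change of -0.70 ± 0.31 was not called (edgeR adjusted p = 0.318). Both chromosome 3 groups lay between the chromosome 2 groups, with the highest Chrom3-5R library just under the lowest Chrom2-5R library.

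CG8665 lies on 2L, from 21371227 to 21377995, on the plus strand. Its level was 216, 209, 258 and 104 CPM in Chrom2-5R and 52.5, 42.1, 39.0 and 50.0 CPM in Chrom2-160R. Chrom2-5R replicate 4 was far below the other Chrom2-5R libraries but still above every Chrom2-160R library. The chromosome 2 log2 change was -2.10 ± 0.23. In Chrom3-5R the level was 95.3, 94.0, 101 and 86.9 CPM and in Chrom3-160R 81.1, 65.5, 58.6 and 80.6 CPM. Every Chrom3-160R library was below every Chrom3-5R library, although the log2 change of -0.40 ± 0.22 was not called (edgeR adjusted p = 0.425). In the fit of the chromosome 3 libraries alone the SE was 0.108, and the change was still not called (edgeR adjusted p = 0.0997).

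CG2493, a prolylcarboxypeptidase, was the member whose change passed the test on chromosome 3. It lies on 2L, from 20461585 to 20463444, on the minus strand, and consists of 1 exon. Its level was 82.3, 90.7, 96.0 and 86.6 CPM in Chrom3-5R and 75.9, 64.3, 60.3 and 63.8 CPM in Chrom3-160R. The groups did not overlap, and the log2 level of the gene fell by 0.43 ± 0.07 (edgeR adjusted p = 0.00183), lower in each of the 4 Chrom3-160R libraries. The call for CG2493 held in the fit of the chromosome 3 libraries alone, with a higher p (edgeR adjusted p = 0.013). On chromosome 2 its level was 115, 113, 111 and 97.7 CPM in Chrom2-5R and 46.5, 45.5, 45.0 and 50.2 CPM in Chrom2-160R, a log2 change of -1.22 ± 0.07. It shares 145 bases with Cdc23 on the opposite strand, which had 0.0743 times its counts.

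The other carboxypeptidase, CG4572 (3R, 19862517 to 19864393, minus strand), had 89.8, 96.1, 92.3 and 86.4 CPM in Chrom2-5R and 54.1, 51.9, 50.3 and 54.9 CPM in Chrom2-160R. The chromosome 2 log2 change was -0.79 ± 0.06, the smallest of the 9. The gene shares 84 bases with CG11447 on the opposite strand, which had 0.1002 times its counts. In Chrom3-5R it had 85.5, 88.8, 88.9 and 88.3 CPM, overlapping Chrom2-5R, and in Chrom3-160R 85.6, 80.1, 69.6 and 72.2 CPM. The chromosome 3 groups overlapped through Chrom3-160R replicate 1 alone. The log2 change there was -0.19 ± 0.06 and was not called (edgeR adjusted p = 0.094), but without Chrom3-160R replicate 1 it was (-0.26 ± 0.05, edgeR adjusted p = 0.0125). DESeq2 also called it (adjusted p = 0.0372), and its adjusted p ran from 0.0125 to 0.256 across the alternatives.

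nompB, the cilium assembly gene, showed a different pattern, in which Chrom2-5R alone was high. The gene lies on 2L, from 21578292 to 21589423, on the minus strand, and 2794 of its 11132 bases are exonic. It had 9.89, 12.8, 11.1 and 11.3 CPM in Chrom2-5R and 3.65, 3.11, 3.85 and 3.10 CPM in Chrom2-160R, a log2 change of -1.72 ± 0.10. The chromosome 3 libraries had 3.80, 3.90, 3.38 and 3.75 CPM with the short repeat and 3.82, 3.37, 3.84 and 3.14 CPM with the long one. All 3 groups other than Chrom2-5R overlapped one another, and none reached it. The chromosome 3 log2 change was -0.07 ± 0.10 with a 95% interval from -0.27 to 0.14 (edgeR adjusted p = 0.814).

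CG30054, the Gq-class alpha subunit gene (2R, 12623726 to 12625352, plus strand), was the only member whose 2 differences had opposite signs. It had 12.4, 9.19, 9.14 and 10.3 CPM in Chrom2-5R and 41.1, 29.5, 27.3 and 31.0 CPM in Chrom2-160R, a log2 change of 1.66 ± 0.12. Chrom2-160R replicate 1 was the highest library, and leaving it and Chrom3-160R replicate 4 out gave 1.52. In Chrom3-5R it had 18.3, 19.5, 18.8 and 18.3 CPM and in Chrom3-160R 14.8, 15.9, 15.3 and 17.5 CPM. These groups did not overlap, with the long repeat lower, and the log2 change of -0.24 ± 0.11 was not called (edgeR adjusted p = 0.313). It was called in the fit of the chromosome 3 libraries alone (edgeR adjusted p = 0.0443) and without the 2 libraries that stood apart (edgeR adjusted p = 0.042), while its adjusted p reached 0.503 under another alternative.

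Of the 3 genes given no role in the tables used, CG33926 (3L, 9443232 to 9446388, plus strand) had the widest spread. It had 9.80, 7.66, 13.1 and 2.22 CPM in Chrom2-5R and 1.47, 1.29, 1.25 and 1.47 CPM in Chrom2-160R. Chrom2-5R replicate 4 was nearer to the Chrom2-160R libraries than to the others of its own group, and the log2 change was -2.54 ± 0.45, with a range of -2.89 to -2.17 over the alternatives. The chromosome 3 libraries were all higher than any chromosome 2 library, at 20.7, 19.0, 28.2 and 22.0 CPM in Chrom3-5R and 21.3, 13.9, 14.8 and 18.0 CPM in Chrom3-160R. The difference between Chrom3-160R and Chrom2-160R, 12.4-fold in mean level, was wider than that between the chromosome 2 groups, 5.99-fold. The chromosome 3 log2 change was -0.40 ± 0.31 (edgeR adjusted p = 0.599).

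CG8245 (2R, 5668383 to 5669986, plus strand) had the least spread of the 9 in Chrom2-5R. Its level was 30.3, 29.9, 29.6 and 31.1 CPM in Chrom2-5R and 69.0, 65.9, 66.7 and 62.4 CPM in Chrom2-160R, a log2 change of 1.13 ± 0.05. It had 61.1, 63.9, 58.2 and 63.3 CPM in Chrom3-5R and 64.9, 69.5, 75.8 and 66.8 CPM in Chrom3-160R. As with nompB, Chrom2-5R stood alone, here below, and both chromosome 3 groups overlapped Chrom2-160R. The chromosome 3 groups did not overlap each other, and the log2 change of 0.17 ± 0.05 was not called (edgeR adjusted p = 0.094), although DESeq2 called it (adjusted p = 0.0456, the lowest among its alternatives, with 0.337 the highest).

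CG2233 (X, 8035741 to 8037517, minus strand) was the most abundant of the 9. Its mean level per kilobase of gene span was 380 CPM in Chrom2-5R, against 58.6 for CG2493, the next, and 1.01 for nompB, the lowest. It had 749.8, 652, 703 and 594 CPM in Chrom2-5R and 403, 369.8, 383 and 344 CPM in Chrom2-160R, a log2 change of -0.85 ± 0.06. It had 502, 506, 498 and 507 CPM in Chrom3-5R and 491, 469, 473 and 446 CPM in Chrom3-160R. The 4 groups did not overlap, with both chromosome 3 groups between the chromosome 2 groups, and the chromosome 3 log2 change was -0.10 ± 0.06 (edgeR adjusted p = 0.477).

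**Figure D2:**
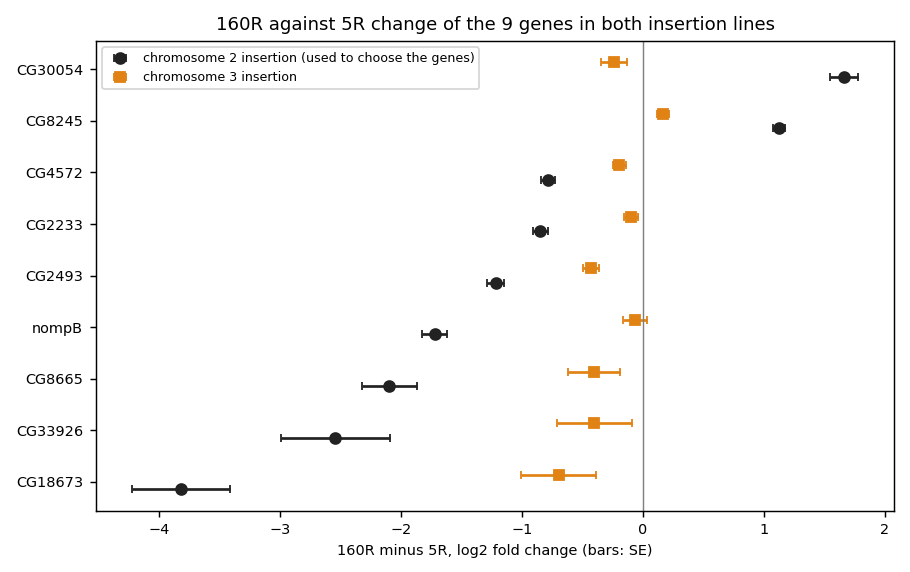
Log2 fold change of 160R against 5R (x axis, bars are SE) for each of the 9 genes (y axis) with the transgene on chromosome 2 (circles, the values that chose the genes) and on chromosome 3 (squares). The chromosome 3 values run from -0.70 for CG18673 to 0.17 for CG8245, all nearer 0 than the chromosome 2 values. Nothing is read from this, since the choice favored large chromosome 2 values.

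Set side by side, 7 of the 9 genes were lower and 2 higher in Chrom2-160R, while 8 were lower and 1 higher in Chrom3-160R. The sign was shared by 8 genes, all but CG30054. The share of all genes with the same sign on both chromosomes was not computed, so nothing is read from this count. The groups did not overlap for any of the 9 on chromosome 2, where that held for 22.6% of the 13525 genes tested and where 26.1% were called by edgeR, and nothing is read from this since the choice used it. On chromosome 3 the groups did not overlap for 5 of the 9 (CG8665, CG2493, CG8245, CG2233 and CG30054), against 11.5% of genes tested. By edgeR 1 of the 9, CG2493, was called lower on chromosome 3 and none higher, against 1.43% of all genes called lower, 0.673% called higher and 2.11% called in either direction, while 5 had an unadjusted p below 0.05 against 14.7% of all genes. DESeq2 called 2 lower and 1 higher, against 2.42% and 1.59% of the genes to which it gave an adjusted p. The median size of the chromosome 3 change, sign ignored, was 0.24 for the 9 genes and 0.081 for all genes tested, while on chromosome 2 it was 1.66 and 0.153.

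The levels in the chromosome 3 libraries were set beside those of both chromosome 2 groups. For 6 of the 9 genes (CG18673, CG33926, CG8665, CG2493, CG2233 and CG30054) neither chromosome 3 group overlapped either chromosome 2 group. The share of all genes meeting this was not computed, and the chromosome 2 libraries chose the genes, so nothing is read from the count. Chrom3-5R did not overlap Chrom2-5R for 8 of the 9 genes, all but CG4572, against 30.6% of all genes, and Chrom3-160R did not overlap Chrom2-160R for 7, all but nompB and CG8245, against 24.1%. The mean of the chromosome 3 groups differed from Chrom2-160R by 0.08 on the log2 scale for nompB and by -0.015 for CG8245, and from Chrom2-5R by -1.64 and 1.11. For CG4572 it was the reverse, with -0.149 from Chrom2-5R and 0.638 from Chrom2-160R. CG18673 was also nearer Chrom2-5R, at -1.21 against 2.59 from Chrom2-160R, as was CG2493 at -0.507 against 0.711. CG33926 was above both, at 1.25 from Chrom2-5R and 3.83 from Chrom2-160R. CG8665 was nearer Chrom2-160R, at 0.839 against -1.26 from Chrom2-5R. CG2233 at -0.473 and 0.375 and CG30054 at 0.749 and -0.902, in each case from Chrom2-5R and Chrom2-160R in that order, lay near the middle, and which group was nearer turned with scaling by library totals alone. These differences between lines were not tested, since they use the libraries that chose the genes.

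The chromosome 3 change minus the chromosome 2 change, given without a test for the same reason, was 3.12 ± 0.52 for CG18673, 2.14 ± 0.55 for CG33926, 1.69 ± 0.31 for CG8665 and 1.66 ± 0.14 for nompB. It was 0.79 ± 0.10 for CG2493, 0.75 ± 0.09 for CG2233 and 0.59 ± 0.08 for CG4572. For the 2 genes that were higher in Chrom2-160R it was -0.96 ± 0.07 (CG8245) and -1.90 ± 0.16 (CG30054).

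Among themselves, CG2233, CG4572 and CG2493 had the smallest differences over the 16 libraries. They also varied least of the 9 about their own means (root mean square 0.312, 0.319 and 0.468), which by itself makes such differences small. Their centred log2 levels differed by a root mean square of 0.177 (CG2233 and CG4572), 0.195 (CG2493 and CG4572) and 0.215 (CG2493 and CG2233). Single libraries also recurred at the ends of the ranges. Chrom2-5R replicate 4 was the lowest of its group for 5 of the 9 genes (CG33926, CG8665, CG2493, CG2233 and CG4572), and Chrom3-160R replicate 1 was the highest of its group for the same 5. In Chrom2-160R, replicate 1 was the highest for 5 genes and replicate 3 the lowest for 6.

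The summed level of fat body markers, genes of the tissue that stores lipid and makes blood proteins, was lower with the long repeat in both lines. Values of 7 of the 9 genes were also lower in both, with 1 of them, CG2493, called on chromosome 3. The share of all genes lower in both was not computed, so nothing is read from that count. The 9 markers summed to 10674 to 12211 CPM in the Chrom2-5R libraries and to 6509 to 7858 CPM in those of Chrom2-160R. The sums were 10249 to 11516 CPM for Chrom3-5R and 8251 to 9192 CPM for Chrom3-160R. Of the 9 markers, Rfabg, the lipid carrier precursor, made up most of each sum, with means of 9081 CPM in Chrom2-5R and 8432 CPM in Chrom3-5R. It fell on both chromosomes, with log2 changes of -0.66 and -0.26, and Mtp, ACC, Yp1 and Yp3 fell on chromosome 2. On chromosome 3 these 4 had log2 changes of -0.27, -0.16, -0.49 and 0.30 and were not called, and the difference between the chromosomes was not tested. Fbp1, at 2.93 and 3.71, and Fbp2, at 2.65 and 2.34, were not called. Nor were Lsp2, at -1.85 and -1.51, and Yp2, at -1.09 and -0.16. Chrom3-160R replicate 1 had the highest fat body sum of its group, and Chrom2-5R replicate 4 had the second highest of its own. Photoreceptor markers summed to 19174 to 28120 CPM in Chrom2-5R libraries, against 16057 to 19706 CPM with the long repeat, which overlapped. In the chromosome 3 groups the sums were 12721 to 13832 and 12292 to 13812 CPM. On chromosome 2 ninaE and Arr2 were called lower (log2 changes -0.78 and -0.35). Arr1 (-0.22), inaC (-0.004), norpA (0.08) and trp (0.13) were not called, and none was called on chromosome 3. The summed level of 4 cuticle markers was higher with the long repeat in both lines. It was 220 to 249.6 CPM in Chrom2-5R against 598 to 663 CPM, and 295 to 406 CPM in Chrom3-5R against 441 to 660.1 CPM. Most of it was Cpr72Ec, with means of 228 and 574 CPM on chromosome 2, which was called higher on both chromosomes. Acp1 was called higher on chromosome 2 only. Edg78E was called lower there (log2 change -1.23) and was not called on chromosome 3 (0.46), and Cpr47Ef was not called on either. Midgut markers summed to 95.3 to 127 CPM in Chrom2-5R against 44.1 to 59.9 CPM with the long repeat, and on chromosome 3 to 63.3 to 94.7 against 48.6 to 77.6 CPM, which overlapped. Amy-d was called lower on both chromosomes (log2 changes -1.35 and -0.64), and Amy-p on chromosome 2 only (-1.17, against -0.33). Mal-A1 was not called on either (-0.13 and -0.02), and alphaTry and betaTry were too low to test. Muscle markers summed to 3748 to 4383 CPM in Chrom2-5R, below every Chrom2-160R library, while on chromosome 3 the sums of 3144 to 3985 and 3241 to 5491 CPM overlapped. On chromosome 2 up, wupA and Mlc2 were called higher (log2 changes 0.99, 0.66 and 0.87). Mhc (0.60), Tm2 (0.56), bt (0.25) and Act88F (-0.44) were not called there, and no muscle marker was called on chromosome 3. The part of any of these in the results on the 9 genes was not tested, and in whole heads fewer cells of a type and less RNA per cell cannot be told apart.

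**Figure D3:**
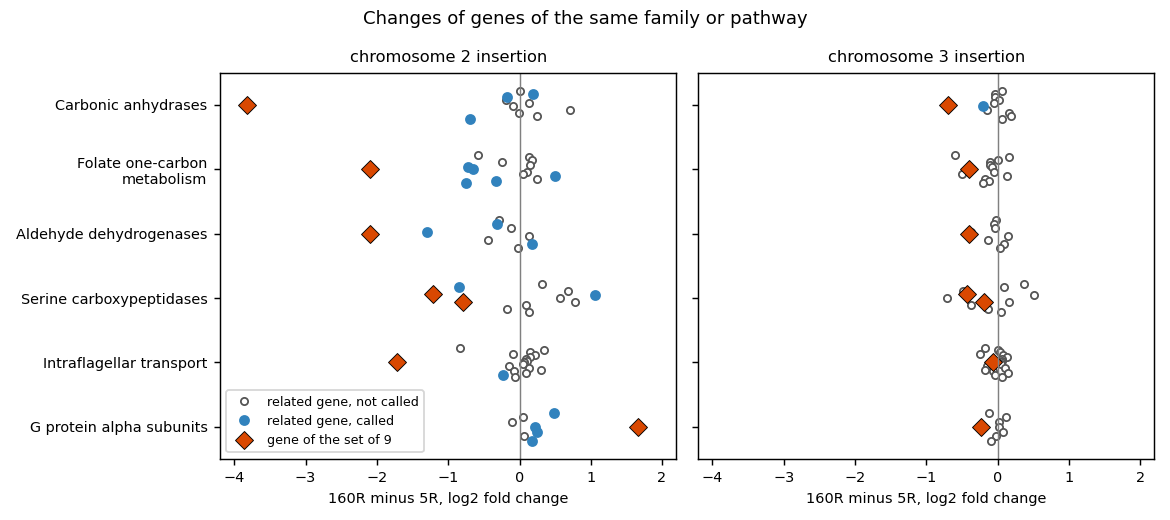
Log2 fold change of 160R against 5R (x axis) for genes of the family or pathway of a member (rows), on chromosome 2 (left) and chromosome 3 (right). Diamonds are the genes of the set of 9, filled circles related genes called by edgeR and open circles related genes not called. On chromosome 2 the diamonds lie outside their relatives in every row but the serine carboxypeptidases, where CG18493, at -0.85, lies beyond CG4572. Nothing is read from this, since the genes of the set were chosen for large chromosome 2 changes.

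Genes of the same families and pathways were examined next, leaving the 9 genes out. Of 13 other carbonic anhydrase genes found, 10 were expressed enough to test. On chromosome 2, 1 rose and 2 fell, with a median log2 change of 0.00, against 26.1% of all genes called. CG6074 (CAH9) fell by 0.69 ± 0.11 (edgeR adjusted p = 0.000355), CAH2 rose by 0.18 ± 0.05 (0.0129) and CG11284 (CAH3) fell by 0.18 ± 0.05 (0.00976; 0.0557 by edgeR in the chromosome 2 libraries alone, in a range from 0.000426). On chromosome 3 the call was CG32698 (CARPB), a relative without the zinc-binding site of the enzymes, which fell by 0.20 ± 0.05 (edgeR adjusted p = 0.0365). That call ended when any chromosome 3 library other than Chrom3-5R replicate 2 or Chrom3-160R replicate 1 was left out (edgeR adjusted p 0.0750 to 0.152), and it was also lost with library totals alone (0.103), with the replicate block (0.0587), in the chromosome 3 libraries alone (0.0673) and without the 2 libraries that stood apart (0.0649), in a range from 0.00448.

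Of 13 other genes of the folate pathway around CG8665, 4 fell and 1 rose on chromosome 2, against 13.3% and 12.8% of all genes, with a median log2 change of 0.05. pug, the trifunctional enzyme that makes formyltetrahydrofolate, the substrate of CG8665, fell by 0.75 ± 0.12, from 459 ± 36.1 to 273 ± 50.3 CPM (edgeR adjusted p = 0.000448). CG6415, the aminomethyltransferase of the glycine cleavage system, fell by 0.72 ± 0.17 and CG7560, the methylenetetrahydrofolate reductase, by 0.66 ± 0.17 (edgeR adjusted p = 0.00722 and 0.0105). ppl, the lipoate protein of glycine cleavage, fell by 0.34 ± 0.08 (edgeR adjusted p = 0.00668), while Nmdmc, the mitochondrial dehydrogenase and cyclohydrolase, rose by 0.49 ± 0.13 (edgeR adjusted p = 0.0114), a call lost with the replicate block (0.0881). On chromosome 3 edgeR called 0 of the 13, against 2.11% of all genes, with a median of -0.11.

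Of 8 other aldehyde dehydrogenases, 2 fell and 1 rose on chromosome 2 (median -0.20), against 26.1% of all genes called in either direction. CG31075 fell by 1.30 ± 0.26 on the log2 scale, with means of 91.2 ± 25.0 and 37.3 ± 13.5 CPM (edgeR adjusted p = 0.00315), and Aldh-III fell by 0.32 ± 0.04. P5CDh1, the pyrroline-carboxylate dehydrogenase of proline breakdown, rose by 0.18 ± 0.05 (edgeR adjusted p = 0.0163), a call that ended without Chrom2-5R replicate 2 (0.0567) or Chrom2-160R replicate 1 (0.0517), or without both libraries that stood apart (0.0531), in a range from 0.00377. Of 9 other serine carboxypeptidases, 1 rose and 1 fell (median 0.31), against the same 26.1%, and both had low levels. CG31823 had 0.222 ± 0.0979 CPM with the short repeat and 0.456 ± 0.144 CPM with the long one, and CG18493 had 1.18 ± 0.304 and 0.678 ± 0.290 CPM (edgeR adjusted p = 0.0485 and 0.0396). The CG31823 call ended without Chrom2-5R replicate 1, 3 or 4 (0.0594, 0.0947 and 0.225) or Chrom2-160R replicate 1, 2 or 3 (0.123, 0.0898 and 0.0961). It also ended without the 2 libraries that stood apart (0.144), with no filter (0.0617), with the replicate block (0.0522) and with limma-voom (0.0653), with 0.0176 the lowest over the alternatives, and DESeq2 gave it no adjusted p. The CG18493 call ended without Chrom2-5R replicate 1 or 2 (0.0718 and 0.15) or Chrom2-160R replicate 3 or 4 (0.0858 and 0.116) and in the chromosome 2 libraries alone (0.0960), in a range from 0.0156. On chromosome 3 edgeR called 0 of either list, against 2.11% of all genes.

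Of 17 other intraflagellar transport genes tested, 1 fell on chromosome 2, against 13.3% of all genes. It was btv, the dynein heavy chain that drives the return transport, which fell by 0.23 ± 0.06 (edgeR adjusted p = 0.00896). None rose, and the median was 0.10. On chromosome 3 edgeR called 0 of the 17. Of 7 other G protein alpha subunits, 4 rose on chromosome 2 and none fell, against 12.8% of all genes called higher and 13.3% called lower, with a median of 0.17. CG17760 rose by 0.49 ± 0.13, Galphaq, the main Gq gene of the photoreceptors, by 0.25 ± 0.05 and Galphao, abundant in neurons, by 0.22 ± 0.04 (edgeR adjusted p = 0.00981, 0.00152 and 0.00145). cta, known from gastrulation, rose by 0.17 ± 0.05 (edgeR adjusted p = 0.0172), a call lost without Chrom2-5R replicate 1 (0.0591) or Chrom2-160R replicate 2 (0.0587), with 0.00591 the lowest over the alternatives. On chromosome 3 edgeR called 0 of the 7, against 2.11% of all genes.

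**Figure D4:**
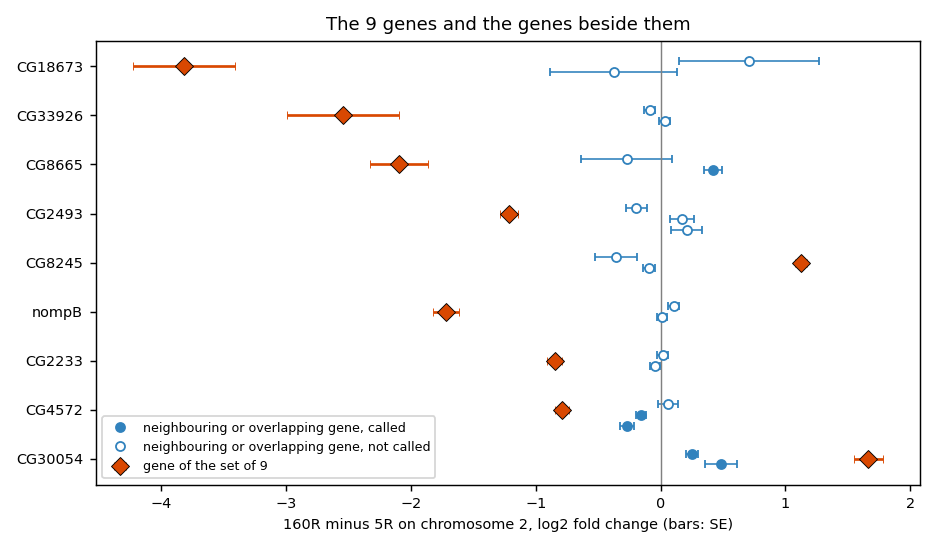
Log2 fold change of 160R against 5R on chromosome 2 (x axis, bars are SE) for each of the 9 genes (diamonds) and for the genes that overlap it or lie nearest on either side (circles, filled where called by edgeR). The circles lie between -0.38 and 0.71, while the diamonds, chosen for large changes in this comparison, run from -3.82 to 1.66.

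Among the 20 nearest or overlapping genes, 3 rose and 2 fell on chromosome 2, and edgeR called none on chromosome 3, against 26.1% and 2.11% of all genes. CG30054 lies in a row of 3 alpha subunit genes in one stretch of 2R, 528 bases past the end of Galphaq and 455 bases before CG17760, and both neighbours rose with the values given above. Galphaq had 39.5 times the counts of CG30054, so the CG30054 values are uncertain to the extent that reads of the 2 genes were not kept apart. The mean of Galphaq was 687 ± 27.6 CPM with the short and 817 ± 58.1 CPM with the long repeat. The gene before CG18673 is another carbonic anhydrase gene, CG3669 (CAH6), with means of 0.185 ± 0.129 CPM in Chrom2-5R and 0.293 ± 0.146 CPM in Chrom2-160R. nrv3, a subunit of the sodium pump of neurons, begins 2004 bases past CG8665 with 17.6 times its counts and rose by 0.42 ± 0.07 (edgeR adjusted p = 0.000359) where CG8665 was lower. Both genes beside CG4572 fell, Ire1, a sensor of endoplasmic reticulum stress, by 0.15 ± 0.04 and CG4686 by 0.27 ± 0.05 (edgeR adjusted p = 0.00924 and 0.00154). The Ire1 call ended with scaling by library totals alone (edgeR adjusted p = 0.0752, in a range from 0.00221).

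CG8665, CG2493 and nompB lie on 2L and CG8245 and CG30054 on 2R, on the chromosome that carries the transgene in the Chrom2 lines. In windows of 100000 bases on each side, a size set after the data were seen, added over the 9 genes, 47 of 248 genes tested rose and 28 fell on chromosome 2, or 30.2% against 26.1% of all genes, and 2.02% were called on chromosome 3 against 2.11%. Around CG8665 4 of 11 rose and 1 fell, around nompB 2 of 15 rose and 2 fell, and around CG2493 3 of 37 rose and 1 fell. Around CG8245 4 of 16 rose and 1 fell, and around CG30054 13 of 33 rose and 1 fell. Around the members on other chromosomes, 12 of 57 rose and 10 fell for CG33926, and 4 of 31 rose and 6 fell for CG4572. For CG2233 3 of 26 rose and 4 fell, and for CG18673 2 of 22 rose and 2 fell. Of all genes tested, 12.8% were called higher and 13.3% lower on chromosome 2. Whether the windows differ was not tested.

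For each member the 3 genes with the most similar levels were sought by the root mean square difference of centred log2 levels over the 16 libraries. The smallest differences were those of CG4572, namely from CG31937 (0.0535), Hf (0.0617) and GNBP3, a receptor for fungal cell walls (0.083). CG2233 was followed by Spn43Ab, a serpin (0.091), Cyt-b5-r (0.103) and CG14629 (0.106), and CG2493 by CG2736 (0.0999), Ance-5 (0.116) and Jheh1, a juvenile hormone epoxide hydrolase (0.118). Spn43Ab, for instance, had 251 ± 29.6 and 157 ± 3.35 CPM in the chromosome 2 groups and 204 ± 6.75 and 192 ± 16.6 CPM in the chromosome 3 groups, short repeat first, the order seen for CG2233. CG8665 was nearest to CG6910, the inositol oxygenase Miox (0.265), which had 835 ± 329 CPM with the short and 249 ± 33.5 CPM with the long repeat on chromosome 2, then to dob, a lipase of the brummer family (0.305), and CG34166 (0.342).

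CG8245 was nearest to l(2)41Ab (0.151), which had 44.5 ± 2.50 CPM in Chrom2-5R, 80.7 ± 6.03 CPM in Chrom2-160R, and 79.8 ± 2.90 and 80.6 ± 4.23 CPM in the chromosome 3 groups, short repeat first. There Chrom2-5R alone was low, as for CG8245, a likeness that the search itself picks. Ilp3, an insulin-like peptide (0.183), and CG4842 (0.189) came next. nompB was nearest to CG33493 (0.265), at 5.33 ± 0.329 CPM in Chrom2-5R and 2.24 ± 0.293, 2.58 ± 0.279 and 2.05 ± 0.217 in the others in the same order, then to CG42633 (0.314) and CG15144 (0.338). CG30054 was nearest to CG34034 (0.288), CG14301 (0.305) and CR45457 (0.323). The matches of CG18673 were CG10924, a phosphoenolpyruvate carboxykinase (0.701), CG12592 (0.768) and the cytochrome P450 gene Cyp6a8 (0.80). Those of CG33926 were Ugt37b1 (0.604), CG42876 (0.887) and CG34456 (0.923). These differences are larger, but a gene that varies more also tends to have larger ones. The root mean square of a member about its own mean was 1.42 for CG18673, 1.63 for CG33926 and 0.319 for CG4572. The differences therefore do not rank matches across members. These likenesses are descriptions over libraries that share line and depth, and the search chose the genes for sharing a member's pattern.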

How the data were processed

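Each deposited file gives raw read counts, as whole numbers, for every gene span in 1 library. They came from strand-preserving libraries of fly heads made without poly(A) selection, per the labels. Trimmomatic, STAR, bedtools and DESeq, and the builds BDGP6 and mm10, are named in the submitters' processing notes without role or setting. Spans are on BDGP6, and 16977 of 17558 had the same ends in Ensembl release 115. In 1618 of 1622 pairs where a gene lies inside another on the opposite strand, the inner count did not exceed the outer, so strands appear to be counted together.

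From these counts, edgeR 4.0.16 in R 4.3.3 (filterByExpr, TMM, robust glmQLFit and glmQLFTest) fitted 16 libraries as 4 group means over 13525 genes, with Benjamini-Hochberg adjusted p below 0.05 as the call. CPM came from the same TMM factors, and log2 CPM used a prior count of 2. Intervals are 95% from the fit. Alternatives were DESeq2 1.42.0, limma-voom 3.58.1, other scalings and filters, a replicate block and leaving libraries out. The members, the related lists and the rules were chosen with earlier results of these data known. Genes beside the 9 were named by rule: in a related list, at most 3 with the largest called change (CG11284, ppl, Nmdmc, cta and the fat body genes were added after their values were seen), and beside them the neighbours and the 3 most similar genes. Promoter motifs and sequences were not used here.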

Additional observations from a re-analysis of the deposited data

Results flagged for a closer look

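CG30054 was flagged because every Chrom2-160R library was above the Chrom2-5R mean while every Chrom3-160R library was below the Chrom3-5R mean. The chromosome 3 change minus the chromosome 2 change was -1.90 on the log2 scale. This difference was not tested, since the chromosome 2 libraries chose the gene. No library of the 9 genes was flagged as far from the others of its group in the 36 groups of 4 examined.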

How the results depend on the processing

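No change of the 9 genes turned its sign on either chromosome under the 17 alternatives tried for each, and on chromosome 3 148 of 153 values kept their side of the threshold. The genes called lower on chromosome 3 numbered 2 in place of 1 with DESeq2, in the fit of 1 chromosome's libraries and, chosen after seeing the data, without the 2 libraries that stood apart, and 1 to 2 when single libraries were left out. DESeq2 also called 1 higher. Among all genes the chromosome 3 count of 285 became 541 with DESeq2 and 434 with limma-voom, and 167 to 337 without single libraries; it was lowest without Chrom3-5R replicate 3 (167) or 1 (176) or Chrom3-160R replicate 3 (170) or 2 (181). The chromosome 2 count of 3535 became 2293 in its own libraries alone. Scaling by library totals alone changed the chromosome 2 split from 1735 higher and 1800 lower to 2097 and 1322, and on chromosome 3 from 91 and 194 to 121 and 139. Replicate numbers did not pair the libraries (same-numbered correlations -0.151 to 0.086); the replicate block gave 2891 calls on chromosome 2 and 207 on chromosome 3, called CG2493 as before, and lost Nmdmc (edgeR adjusted p = 0.0881), CG32698 (0.0587) and CG31823 (0.0522). Depth limits CG18673 in Chrom2-160R most, with 18 to 26 counts a library.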

Other observations

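The gene with the largest change within 100000 bases of a member, named after its values were seen, was CG31683 (2L, 20447734 to 20449964, minus strand), 11620 bases from CG2493. Its level was 2.18 to 3.65 CPM with the short and 0.0675 to 0.558 CPM with the long repeat on chromosome 2, against 1.33 to 1.53 and 0.175 to 0.262 CPM on chromosome 3. Its log2 change was -3.48 ± 0.32 on chromosome 2 and -2.72 ± 0.28 on chromosome 3 (edgeR adjusted p = 1.51e-06 and 1.98e-05), lower in 4 of 4 libraries each time, and it was called under all 17 alternatives on each chromosome (adjusted p up to 0.000373 and 0.000213). It rests on 2 to 13 counts a library in the 160R groups, and the CG31688 span on the opposite strand, with 112 times its counts, overlaps it and was not called on either chromosome. Whether the 2 changes differ was not tested.

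Within 100000 bases of CG33926, and also named after its values were seen, the small heat shock protein gene Hsp26 was higher in Chrom2-160R, at 39.4 ± 18.3 CPM against 8.45 ± 0.269 in Chrom2-5R (log2 change 2.21 ± 0.41, edgeR adjusted p = 0.00183), where CG33926 was lower. On chromosome 3 its means were 5.66 ± 0.382 CPM with the short and 9.05 ± 5.02 CPM with the long repeat, and the log2 change of 0.68 ± 0.39 was not called (edgeR adjusted p = 0.455). Whether these changes differ was not tested.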
